A study of Rattus norvegicus with 6 samples.

Results

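The genes described here carry antigen presentation by the major histocompatibility complex (MHC) of the rat, called RT1. They were all rows of the gene expression table whose name begins with RT1-, together with B2m, Tap1, Tap2, Tapbp, Psmb8, Psmb9, Psmb10, Psme1, Psme2, Erap1, Nlrc5, Ciita and Cd74. This rule found 58 of 30957 rows, of which 44 were RT1 rows and 50 lay on chromosome 20, between positions 154074 and 5476007 of Rnor_6.0. The 58 rows carried 57 gene names, because Tap2 had 2 rows, at 20:3995544-4009587 and at 20:5198258-5212624. The class I arm held 46 rows, 34 of the RT1 family and 12 of the processing genes, and the class II arm held 12, namely 10 RT1 rows, Ciita and Cd74.

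The series compared gene expression by RNA-seq in 6 sciatic nerve samples of Sprague Dawley rats, 3 from injured nerve and 3 from normal nerve, called crushed and intact here. The study's methods describe adult male rats, a crush on 1 side, the uninjured opposite nerve as the intact sample, and collection of the proximal stump 4 days after the crush, whereas the labels give neither a time nor a side. No animal carried a transgene or received another agent according to these sources, and the labels do not tie same-numbered samples to the same rat. The p-values therefore measure the spread between these samples, which may be partly technical. The extraction also differs between sources, with a miRNeasy column kit in the labels and TRIzol with RNase R treatment in the methods.

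MHC class I molecules present peptides from the cytosol to CD8+ T cells. Proteins are cut by the proteasome, whose interferon-inducible catalytic subunits Psmb8, Psmb9 and Psmb10 form the immunoproteasome, and the peptides enter the endoplasmic reticulum through the Tap1-Tap2 transporter, are trimmed by Erap1 and are loaded with the help of tapasin (Tapbp) onto a heavy chain bound to β2-microglobulin (B2m). Class II molecules, which show endocytosed peptides to CD4+ T cells, need the invariant chain Cd74 and the transactivator Ciita and are mostly made by macrophages, dendritic cells and B cells. Injured peripheral nerve is known to take up macrophages, and Schwann cells can express MHC molecules.

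Library totals ranged from 24844371 to 27139360 counts, and 12393 genes with enough counts were tested. A count of 3 corresponded to between 0.110 and 0.121 in normalized CPM, a count scaled to a common library size, so lower values were not distinguishable from 0 at this depth. The labelled tissue was checked against its markers before the results, and the defining Schwann cell genes were nearly absent: Mbp had 0 to 1 counts per nerve, Sox10 0 to 1, S100b 0 to 3 and Cdh19 0, while Pmp22 had 821 to 968. Of 9 Schwann cell markers, 5 were at or under 3 counts in every nerve, and the summed level of the list was 40.4 to 42.5 CPM in intact and 39.3 to 40.8 CPM in crushed nerves. Among the 3 of them tested, Erbb3 was lower in crushed nerves. Of 5 fibroblast markers, Dcn and Col1a2 had no count, Thy1 had 2431 to 3372 counts per nerve, Pdgfra 1114 to 1525 and Col1a1 293 to 537. The summed fibroblast list was 184.8 to 198.5 CPM in intact and 162.5 to 181.2 CPM in crushed nerves, and Col1a1 was lower in crushed nerves (fold 0.619, adjusted p = 0.000662). The proliferation markers were high in both groups, with 37037 to 43837 counts per nerve for Mki67 and 25746 to 27821 for Top2a. All values below are given for samples labelled as nerve, a label that the Schwann cell markers for the most part did not bear out. The words nerve, crushed and intact below follow the labels and the study's methods.

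The start regions of the genes that changed are shown here because the class I promoter is known to hold an NF-κB site next to an interferon regulatory factor (IRF) site, and because 8 of the 9 rows called higher in crushed nerves have a promoter in RefSeq. In the 250 bases before the RefSeq start, the κB consensus, by name, and the IRF core AANNGAAA were searched on both strands, as were CCAAT and TGACG. Matches to different motifs never overlapped, but the 3 IRF core matches of Tapbp overlap each other. Capitals mark κB and IRF core matches, and all sequences are from RefSeq, build GRCr8, written 5′ to 3′ along the gene's strand. The RT1 heavy chain windows are RT1-A1 at chr20:4907063-4907122 (+), RT1-A3 at chr20:4849261-4849320 (+), RT1-CE4 at chr20:3509311-3509370 (−), RT1-CE5 at chr20:3484218-3484277 (−), and, of the rows not called, RT1-A2 at chr20:4872677-4872736 (+) and RT1-CE16 at chr20:3265535-3265594 (−).
RT1-A1: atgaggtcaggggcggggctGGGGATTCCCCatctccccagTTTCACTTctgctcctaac
RT1-A3: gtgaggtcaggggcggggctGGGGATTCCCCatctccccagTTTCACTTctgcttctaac
RT1-CE4: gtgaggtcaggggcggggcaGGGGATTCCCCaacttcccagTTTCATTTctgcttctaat
RT1-CE5: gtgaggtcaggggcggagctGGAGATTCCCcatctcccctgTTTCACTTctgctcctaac
RT1-A2: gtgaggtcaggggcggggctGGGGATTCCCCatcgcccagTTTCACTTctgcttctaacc
RT1-CE16: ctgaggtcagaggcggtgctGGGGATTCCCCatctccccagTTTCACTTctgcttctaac

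These 60-base windows are close copies, RT1-A2 only once a gap between its motifs is allowed for. RT1-A1 shares 58 bases with RT1-A3 and 56 each with RT1-CE5 and RT1-CE16, position by position without gaps, and RT1-CE4 is identical to RT1-A1 at 53 positions. By the same count RT1-A2 shares 40 to 43 bases with each of the other windows shown. The stretch between its κB and IRF matches is shorter than in RT1-A1, so this count compares its later bases out of register. RT1 windows were shown only for promoters with a κB match and were placed by that match. RT1-CE16 and RT1-A2, which were not called, therefore had to hold a κB match, and they also hold an IRF core match. Tested rows not called such as RT1-N3 and RT1-M3-1 have an IRF core match but no κB match and are not shown. A match is a description of letters and says nothing of binding in these samples.

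The processing genes that changed have a different layout. Their windows are Tap1 at chr20:4668584-4668673 (−), Tapbp at chr20:4967878-4967947 (−), Psmb10 at chr19:50743293-50743372 (−) and Psme2 at chr15:33052772-33052821 (−). B2m, which was not called, is shown for comparison from chr3:129549160-129549219 (+).
Tap1: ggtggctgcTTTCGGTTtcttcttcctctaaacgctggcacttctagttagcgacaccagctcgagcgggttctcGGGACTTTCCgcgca
Tapbp: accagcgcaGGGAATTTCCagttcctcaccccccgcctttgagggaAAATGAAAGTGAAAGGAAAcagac
Psmb10: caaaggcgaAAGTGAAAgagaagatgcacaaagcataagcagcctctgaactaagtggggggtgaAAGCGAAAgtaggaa
Psme2: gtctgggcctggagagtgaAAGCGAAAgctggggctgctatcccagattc
B2m: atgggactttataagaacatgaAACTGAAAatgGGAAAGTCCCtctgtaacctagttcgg

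The IRF core was present in 8 of 8 called names with a promoter, in 12 of 18 tested class I names not called, in 2 of 10 class II names and in 23.3% of 33469 rat promoters. The κB consensus was in 6 of 8 called names, in 3 of 18 not called, in 2 of 10 class II names and in 6.33% of all promoters. CCAAT, part of the Y box of class II promoters, was in all 10 class II names, in 4 of 8 called names, in 10 of 18 not called and in 34.0% of all promoters. TGACG, the core of a cyclic AMP response element, was in 2 of 8 called names, 7 of 18 not called, 1 of 10 class II names and 18.2% of all promoters. The RT1 windows come from duplicated genes and are not independent sequences. Promoters were joined to rows by gene name, across 2 builds, so an RT1 window may not belong to the locus that was counted. No promoter was found in that table for RT1-CE7, Nlrc5, Erap1, Ciita and RT1-DMb.

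Crushed nerves had higher levels of some class I genes, by modest folds, and no class II gene differed by the test. Of 46 class I rows, 30 had enough counts to be tested with edgeR's quasi-likelihood test, and 9 of these rose at an adjusted p under 0.05 over all genes: RT1-CE4, RT1-CE5, RT1-CE7, RT1-A1, RT1-A3, Psmb10, Tapbp, Tap1 and Psme2. The folds ran from 1.28 for Psme2 to 1.96 for RT1-CE4. None of the 30 fell, and 21 were not called. Over all 12393 genes tested, 1.47% were called higher and 1.65% lower. The median log2 fold change was 0.27 over the 30 tested class I rows, 0.33 over the 18 RT1 rows among them and 0.18 over the 12 processing rows, against −0.0017 over all genes tested. At an unadjusted p under 0.05, 17 class I rows were higher and 1 was lower, where 6.71% and 9.50% of all genes were. In 17 class I rows the lowest crushed value exceeded the highest intact value, as in 10.8% of all genes, and in 2 the order was the opposite. The share of all genes with that opposite order was not counted. No member passed the threshold of the study's methods, an absolute log2 fold change above 1 with p under 0.001, which 0.282% of all genes passed. In bulk samples, more cells that express a gene and more RNA per cell cannot be told apart.

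**Figure D1:**
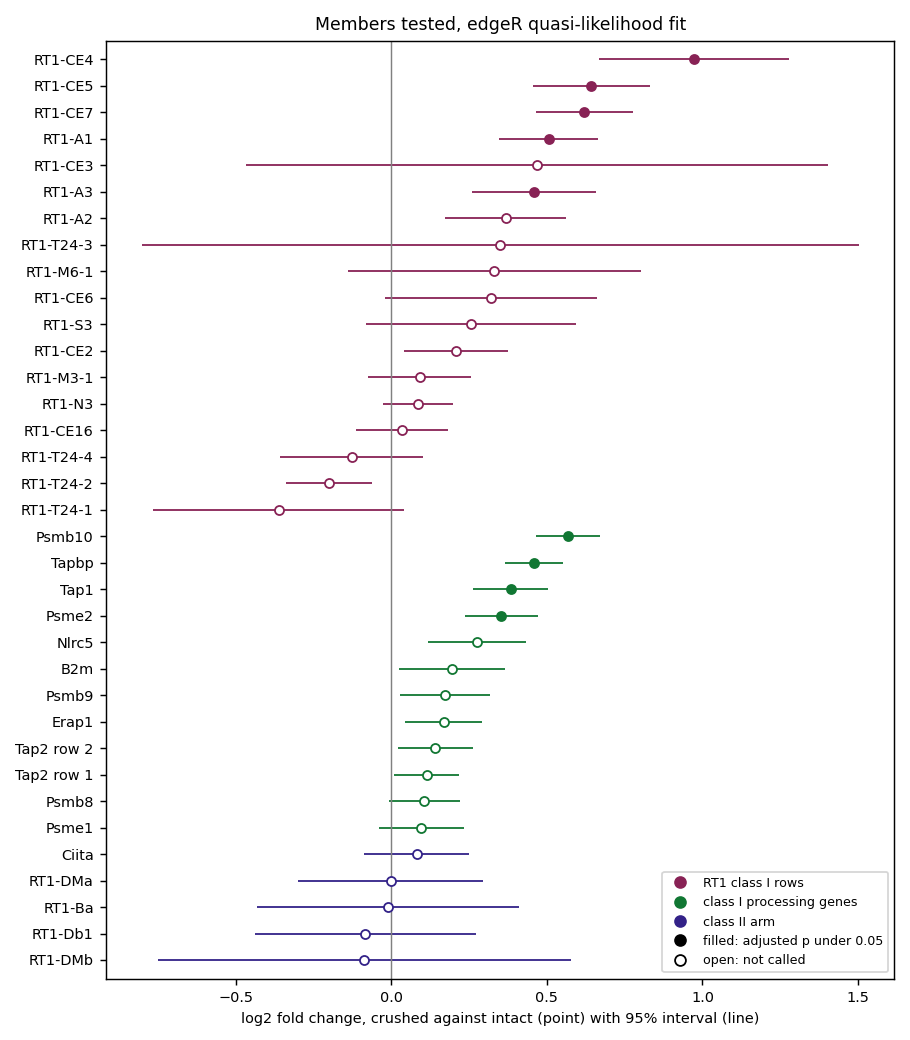
Log2 fold changes of the 35 members tested, crushed against intact, from edgeR's quasi-likelihood fit, with points for the estimate, lines for its 95% interval and filled points for an adjusted p under 0.05. The 9 filled points are all to the right of 0 and all in the class I arm, and the 5 class II members lie around 0.

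Of the 18 RT1 class I rows tested, 5 rose and 15 had a positive log2 fold change. The heavy chain gene RT1-CE4 (20:4673658-4935887) changed by the largest fold of the called rows, from a low level. Intact nerves had 117, 132 and 90 counts of it, and crushed nerves 212, 262 and 217. The lowest crushed nerve was well above the highest intact nerve, and the level went from 4.42 ± 0.707 to 8.69 ± 0.944 normalized CPM (SD, n = 3 each), a log2 fold change of 0.97 with a standard error (SE) of 0.138 and an adjusted p of 0.00281. The 95% interval of the fold ran from 1.59 to 2.42.

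RT1-CE5 (20:4892702-4896991) had 8.97, 8.79 and 9.61 CPM in intact nerves and 14.5, 13.6 and 14.6 CPM in crushed nerves. RT1-CE7 (20:4694472-4896970) had 22.6, 26.1 and 23.3 CPM against 38.6, 36.3 and 35.9 CPM. In both heavy chain rows the groups were far apart relative to the spread within them. RT1-CE5 rose by 0.64 on the log2 scale (SE 0.0848, adjusted p = 0.00182) and RT1-CE7 by 0.62 (SE 0.0704, adjusted p = 0.000662).

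The classical class Ia genes of the rat lie in the RT1-A region. In Rnor_6.0 the RT1-A3 row lies apart from the RT1-A1 and RT1-A2 rows and overlaps RT1-CE16. RefSeq places RT1-A3 near RT1-A1 and RT1-A2 in GRCr8, so the row and the RT1-A3 window above may be different loci. RT1-A1 (20:5351605-5421098) had 17.8, 18.6 and 17.4 CPM in intact and 25.2, 27.1 and 24.1 CPM in crushed nerves, and the groups did not overlap. It rose by 0.51 on the log2 scale (SE 0.0721, adjusted p = 0.00288), 1.42-fold. RT1-A3 (20:3791629-3796275) had 9.49, 11.2 and 11.1 CPM in intact and 14.4, 15.0 and 14.4 CPM in crushed nerves, again without overlap. Its log2 fold change was 0.46 (SE 0.0906, adjusted p = 0.0209), and the call was lost when any 1 of the crushed nerves was left out, with adjusted p from 0.0698 to 0.0964. RT1-A2 (20:5374985-5378539) stood just outside the threshold at 0.37 (SE 0.0879, adjusted p = 0.0509), with 12.4, 12.2 and 12.6 CPM against 17.6, 14.8 and 15.6 CPM.

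These RT1 rows do not give independent measurements. There were 14 overlapping pairs of member rows, and 14 rows overlapped at least 1 other, including all 5 called RT1 rows. RT1-CE7 lies whole within RT1-CE4 and RT1-CE2, RT1-CE5 lies within RT1-CE4 and has 99.5% of its length inside RT1-CE7, and RT1-A2 lies within RT1-A1. RT1-A3 shares 2399 bases with RT1-CE16, which is 91.5% of the length of RT1-CE16. RefSeq lists RT1-CE7 as a synonym of RT1-CE5, and also as a gene symbol of its own. The sources used here do not say how reads shared by copies were assigned, so the rise of any 1 RT1 row is uncertain, and the summed level is given beside it. The 34 class I RT1 rows together had 307.2, 299.2 and 309.3 CPM in intact nerves and 355.8, 350.7 and 337.2 CPM in crushed nerves. Every crushed sum was above every intact sum, 347.9 ± 9.60 against 305.2 ± 5.33 CPM (SD, n = 3), a ratio of 1.14. The exact permutation test of 3 against 3 nerves cannot give a two-sided p under 0.1 and was not used. The 4 called processing genes overlap no other member row.

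**Figure D2:**
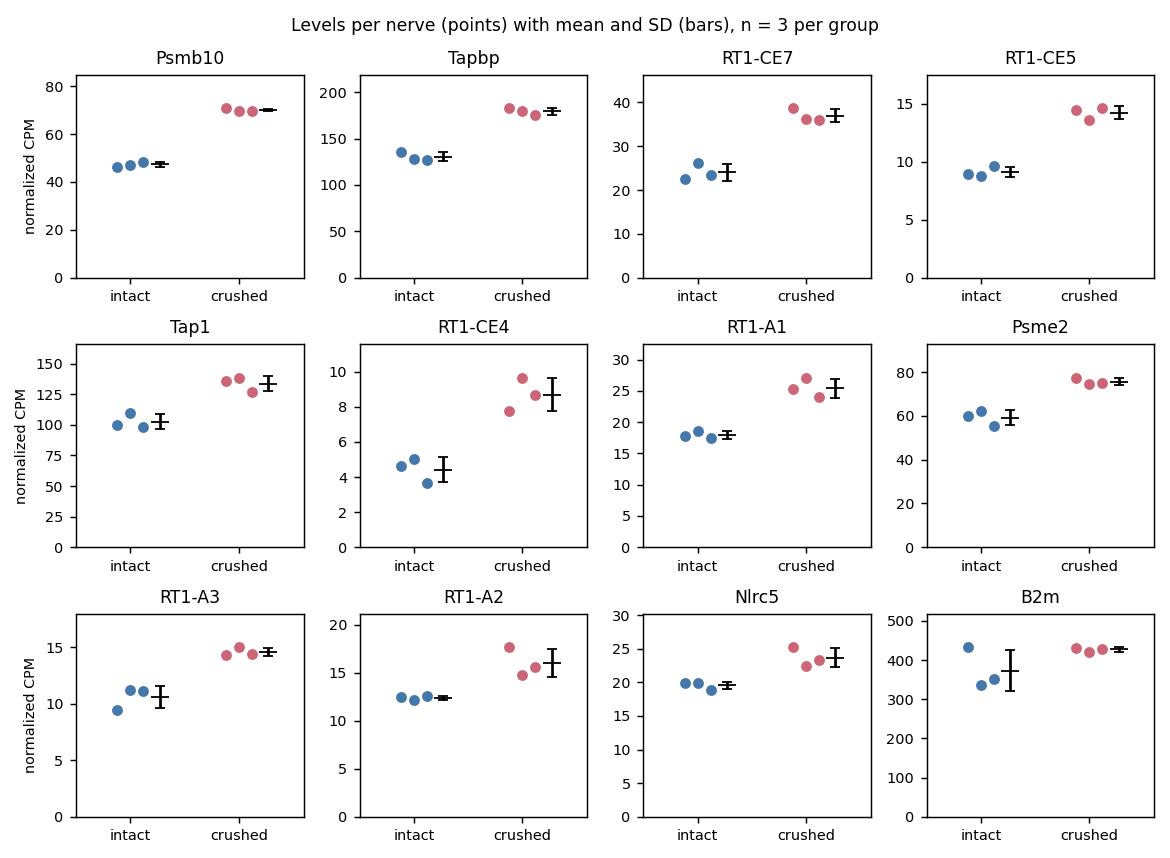
Normalized CPM of the 9 called members and of RT1-A2, Nlrc5 and B2m in each nerve, with bars for mean and SD of 3 nerves. Crushed points lie above all intact points in every panel except B2m, where the intact nerve at 432 CPM is as high as the crushed nerves.

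The most abundant RT1 row did not pass the test. In FPKM, the deposited level scaled to gene length and library size, RT1-CE16 (20:3791407-3794027) had 63.1 ± 4.49 FPKM in intact and 65.4 ± 4.53 FPKM in crushed nerves, the highest level per length of all RT1 rows, and the interval of its fold ran from 0.925 to 1.13 (log2 fold change 0.03, adjusted p = 0.846). RT1-N3, a nonclassical row, came next at 33.4 ± 1.36 and 35.9 ± 1.23 FPKM, with an interval of the fold from 0.981 to 1.15 (adjusted p = 0.451). RT1-T24-2, listed by RefSeq as a long noncoding RNA, followed at 25.8 ± 1.70 and 22.7 ± 0.400 FPKM. The called RT1 rows were all below these, from 0.866 FPKM for RT1-CE4 to 8.39 FPKM for RT1-A3 in intact nerves. The difference in response between RT1-CE16 and the called rows was not tested.

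Of the 18 RT1 class I rows tested, the 3 with a negative log2 fold change were RT1-T24-1, RT1-T24-2 and RT1-T24-4, and none was called. RT1-T24-2 had 38.7, 36.2 and 41.1 CPM in intact and 33.0, 33.9 and 34.1 CPM in crushed nerves, without overlap, but its log2 fold change of −0.20 (SE 0.0625) did not pass the test (adjusted p = 0.133). RT1-T24-1, which covers 99.7% of RT1-T24-2, had 43, 40 and 43 counts against 35, 35 and 32 (log2 fold change −0.36, adjusted p = 0.369). RT1-T24-4 was at −0.13 (adjusted p = 0.590). RT1-T24-3 was uneven, with 42, 38 and 82 counts in intact and 38, 148 and 31 in crushed nerves. Its positive log2 fold change of 0.35 (SE 0.521) rested on crushed nerve 2 and turned to −0.69 without it.

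The remaining RT1 class I rows tested did not pass. RT1-CE2 was at 0.21 (SE 0.0757, adjusted p = 0.199) with groups apart, and the nonclassical RT1-M3-1 at 0.09 (adjusted p = 0.598), also with every crushed nerve above every intact nerve. RT1-CE6, a long noncoding RNA in RefSeq, was at 0.32 (adjusted p = 0.346), RT1-M6-1 at 0.33 (adjusted p = 0.487), RT1-S3 at 0.26 (adjusted p = 0.446) and RT1-CE3 at 0.47 (adjusted p = 0.637), with overlapping groups. RT1-CE3 had only 11 to 42 counts per nerve. Of the 16 class I rows not tested, 12 had 0 counts in all nerves. RT1-CE10 had 5, 9 and 7 counts in intact and 3, 13 and 15 in crushed nerves, RT1-T18 had 0, 0 and 1 against 5, 1 and 1, and the other two, RT1-N2 and RT1-M5, never exceeded 2 counts.

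**Figure D3:**
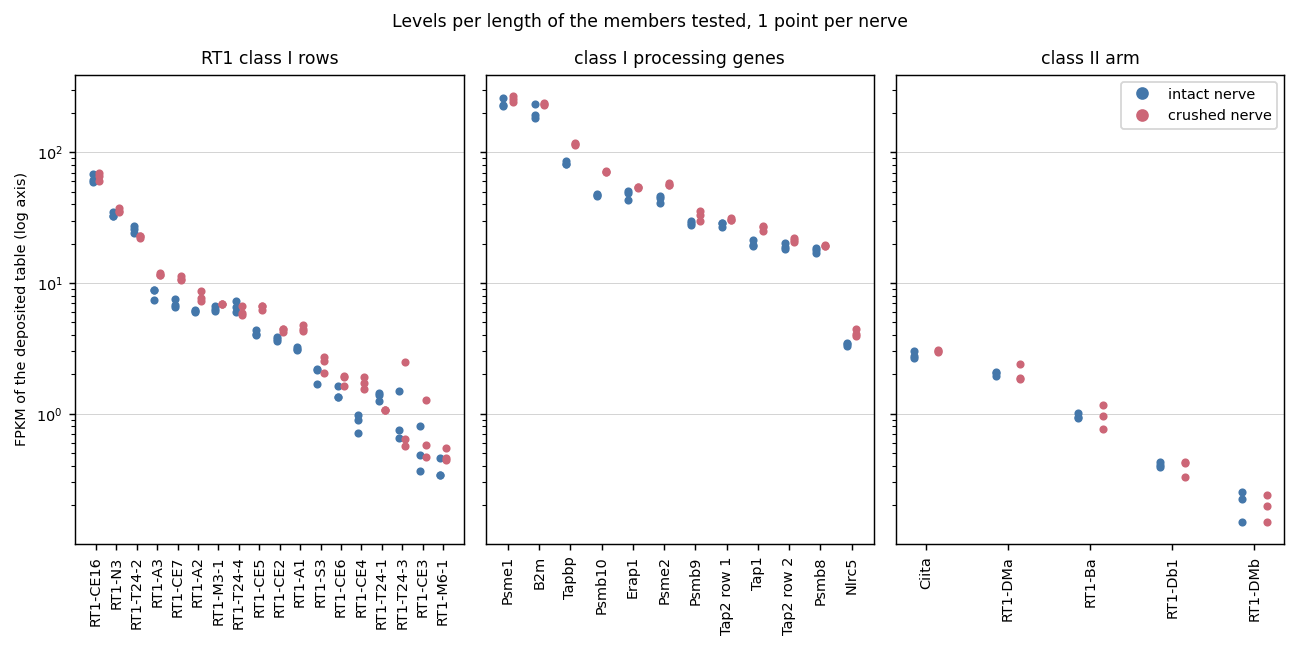
FPKM of the deposited table on a log axis for every member tested, with 1 point per nerve, in panels for RT1 class I rows, class I processing genes and the class II arm. Psme1 and B2m exceed 100 FPKM, RT1-CE16 has the highest RT1 level, and the 5 class II members lie at about 3 FPKM or below.

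All 12 rows of the processing machinery had positive log2 fold changes, and 4 rose. Psmb10 (19:37909546-37912027), the immunoproteasome subunit that replaces Psmb7, had the smallest adjusted p of all members. It had 46.4, 47.1 and 48.4 CPM in intact and 70.7, 69.6 and 69.8 CPM in crushed nerves. The spread within a group was about 1 CPM, and the level went from 47.3 ± 0.997 to 70.1 ± 0.572 CPM (SD, n = 3), 1.48-fold (log2 fold change 0.57, SE 0.0469, adjusted p = 7.33e-05).

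The other 2 immunoproteasome subunits did not pass. Psmb9 (20:3973420-3978845) had 47.8, 46.5 and 49.2 CPM against 58.0, 54.7 and 49.1 CPM, with crushed nerve 3 inside the intact range (log2 fold change 0.17, SE 0.0655, adjusted p = 0.220). Psmb8 (20:3990613-3993769) was at 0.11 (SE 0.0511, adjusted p = 0.342), with 73.4, 65.8 and 69.2 CPM against 75.2, 74.4 and 74.8 CPM. Per length and against the standard subunit that each replaces, Psmb10 to Psmb7 had FPKM ratios of 0.426, 0.479 and 0.482 in intact and 0.740, 0.723 and 0.684 in crushed nerves. The mean ratio was 0.462 ± 0.0318 in intact and 0.716 ± 0.0289 in crushed nerves (SD, n = 3). Psmb8 to Psmb5 had a mean ratio of 0.136 ± 0.00424 against 0.146 ± 0.00144, and Psmb9 to Psmb6 of 0.656 ± 0.0106 against 0.653 ± 0.0275. Only the Psmb10 ratio was higher by many times its spread, the Psmb8 ratios did not overlap but differed by little, and the Psmb9 ratios overlapped. These ratios compare levels between genes and have no test here.

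**Figure D4:**
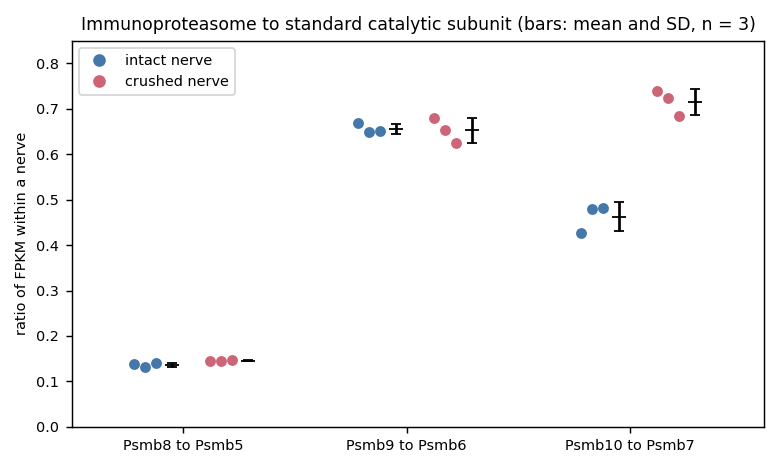
Ratio of FPKM within a nerve between each immunoproteasome subunit and the standard subunit it replaces, with points for nerves and bars for mean and SD (n = 3). Psmb10 to Psmb7 moves from a mean of 0.462 to 0.716, and the other mean ratios stay within about 0.01 of their intact mean.

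The proteasome activator PA28 is built from Psme1 and Psme2. Psme2 (15:34265557-34269851) had 60.1, 62.0 and 55.5 CPM in intact and 77.3, 74.5 and 75.1 CPM in crushed nerves, without overlap, and rose by 0.35 on the log2 scale (SE 0.0532, adjusted p = 0.00397). Psme1 (15:34256071-34258947), its partner, had 264, 226 and 229 CPM against 256, 269 and 243 CPM, with overlapping groups (log2 fold change 0.10, SE 0.0622, adjusted p = 0.485). Psme1 was the most abundant member per length, at 238.2 ± 20.2 FPKM in intact nerves. The FPKM ratio of Psme1 to Psme2 was 5.43 ± 0.510 in intact and 4.54 ± 0.266 in crushed nerves, with every crushed ratio below every intact ratio.

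Of the transport and loading genes, Tapbp (20:5468056-5476007), the tapasin gene that bridges the transporter and the heavy chain, had 136, 128 and 127 CPM in intact and 182, 180 and 176 CPM in crushed nerves. Its rise of 0.46 on the log2 scale had an SE of 0.0423 and an adjusted p of 0.000158, and the interval of its fold was 1.29 to 1.47. Tap1 (20:3979035-3989669), the transporter chain, had 99.9, 109 and 98.1 CPM against 136, 138 and 127 CPM and rose by 0.38 (SE 0.0541, adjusted p = 0.00272). Neither gene's groups overlapped.

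Tap2, the partner chain of Tap1, was not called in either of its rows. The row at 20:3995544-4009587 went from 68.5 ± 2.34 to 74.1 ± 1.18 CPM (log2 fold change 0.11, adjusted p = 0.263) and the row at 20:5198258-5212624 from 52.8 ± 2.47 to 58.3 ± 1.92 CPM (0.14, adjusted p = 0.225). Neither row had overlapping groups. The rows of Tap1 and Psmb9 lie 189 bases apart, and the difference between these neighbours was not tested. Erap1 (2:1410934-1449733), the trimming peptidase, was at 0.17 (SE 0.0562, adjusted p = 0.161), with 231, 272 and 264 CPM against 288, 290 and 284 CPM.

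B2m (3:114087287-114093309), the light chain of every classical class I molecule, had 432, 335 and 351 CPM in intact and 431, 421 and 429 CPM in crushed nerves. Intact nerve 1 was as high as the crushed nerves, and the log2 fold change of 0.20 (SE 0.0777) did not pass (adjusted p = 0.247). Without intact nerve 1 it was 0.32 with an adjusted p of 0.000454, so this nerve decides the call. Nlrc5 (19:10905542-10976396), the class I transactivator, had 19.8, 19.9 and 18.9 CPM against 25.2, 22.5 and 23.3 CPM. Its groups were apart, but the log2 fold change of 0.27 (SE 0.0713) missed the threshold (adjusted p = 0.0725).

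The class II arm was measured at low levels and none of its 5 tested rows passed, at an unadjusted p under 0.05 either. Its median log2 fold change was −0.01. Ciita (10:5213350-5260608), the class II transactivator, had 391, 393 and 413 counts in intact and 452, 444 and 422 in crushed nerves. These overlap once scaled to depth, at 15.7 ± 0.909 and 16.6 ± 0.246 CPM (SD, n = 3), and the fold was between 0.941 and 1.19 by its interval (adjusted p = 0.651). RT1-DMa, a chain of the peptide exchange factor DM, had 117, 129 and 123 counts against 155, 120 and 109, and its fold lay between 0.813 and 1.23 (adjusted p = 0.998). RT1-Ba, the α chain of the RT1-B molecule, had 53, 51 and 48 counts against 65, 43 and 49 (adjusted p = 0.984). RT1-Db1, a β chain of RT1-D, had 70, 69 and 63 counts against 57, 73 and 68 (adjusted p = 0.845). The groups overlapped in each, and RT1-DMb, the other chain of DM, had 13 to 23 counts per nerve (interval of the fold 0.594 to 1.49, adjusted p = 0.919).

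The 7 class II rows not tested were close to the floor. Cd74, which is among the most abundant transcripts of professional antigen-presenting cells, had 0, 7 and 5 counts in intact and 11, 10 and 4 in crushed nerves. RT1-Da had 8 to 10 counts in every nerve and RT1-Bb 2 to 5. RT1-Db2 had 3 counts in crushed nerve 3 and RT1-DOa 1 count in all, and RT1-DOb and RT1-Ha had 0. Summed over the 10 class II RT1 rows, the level was 10.8, 10.5 and 10.7 CPM in intact and 11.3, 9.98 and 10.1 CPM in crushed nerves, so the groups overlapped, and the ratio of the means was 0.978. Per length, the class II RT1 rows amounted to 2.14% ± 0.0355 of the class I RT1 rows in intact and 1.95% ± 0.180 in crushed nerves (FPKM, SD, n = 3). The interval of the fold was 0.742 to 1.33 for RT1-Ba and 0.738 to 1.21 for RT1-Db1, and in a fit without the filter it was 0.689 to 5.65 for Cd74, 0.494 to 1.62 for RT1-Da and 0.290 to 2.17 for RT1-Bb. Smaller changes were not detectable at this depth. The difference between the class I and class II arms was not tested.

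Markers of the cells that carry class II were as low. Ptprc and Adgre1, the pan-leukocyte and macrophage genes, had 0 counts in all nerves. Of 9 macrophage markers, which include Adgre1 and Ptprc, 3 were tested and none was called, with 29 to 52 counts for Cd68, 18 to 29 for Csf1r and 49 to 84 for Cd14. Lyz2, under the filter, had 1, 0 and 2 counts in intact and 6, 8 and 2 in crushed nerves. The summed macrophage list was at 3.94 to 5.61 CPM in intact and 4.43 to 6.30 CPM in crushed nerves. The B cell list reached at most 0.0758 CPM and the T and NK cell list at most 0.227 CPM, both in intact nerves, and the dendritic cell list, made of Itgax, Zbtb46 and Flt3, had 9.41 to 10.3 CPM against 8.66 to 10.7 CPM. The part of these cells in the class I values was not tested.

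Among the other genes of the pathway, those between the interferon receptors and the IRF factors were called higher in part. Of 13 tested, 4 rose and none fell, with a median log2 fold change of 0.14. Over all genes tested, 1.47% were called higher and 1.65% lower. Irf1, an activator of class I, Tap1 and immunoproteasome genes, had 100.6, 102 and 99.99 CPM in intact and 134.5, 134.4 and 135.8 CPM in crushed nerves (log2 fold change 0.42, SE 0.0389, adjusted p = 0.000158). Ifngr2, a chain of the interferon-γ receptor, rose by 0.55 (SE 0.118, adjusted p = 0.0331). The ligand genes were not seen at this depth, with 1 count of Ifng in crushed nerve 2 and 0 of Ifnb1.

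No listed gene of the standard proteasome passed the test. None of 14 standard 20S subunits was called, with a median of 0.01, nor any of 6 cytosolic peptidases, with a median of 0.02. None of 9 tested genes on the list of 19S ATPases and other activators was called, with a median of −0.04. That list also holds the proteasome inhibitor Psmf1 and the assembly factor Pomp. Of 7 peptide loading chaperones, the tapasin-related gene Tapbpl was the member that rose (log2 fold change 0.35, adjusted p = 0.0266), and the median was 0.01. None of 8 tested genes on the list of the promoter complex that class I and class II genes share was called, with a median of 0.02. The list holds subunits such as Rfx5 and Nfya, and also Ezh2, which is not a subunit of that complex.

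Endosomal genes that serve class II processing, but also lysosomes in general, gave 3 higher and 0 lower of 6 tested, with a median of 0.23. The shares over all genes were 1.47% higher and 1.65% lower. The 3 called were the cathepsins Ctsl (log2 fold change 0.25, adjusted p = 0.00875) and Ctsd (0.22, adjusted p = 0.0251) and the asparagine endopeptidase Lgmn (0.27, adjusted p = 0.0189), which are lysosomal proteases of many cell types. Ctss, the cathepsin typical of antigen-presenting cells, had 2 counts in crushed nerve 3 and none elsewhere. Of the costimulation and nonclassical presentation genes none of 5 tested was called, and Cd40 and Cd86 had 0 counts in all nerves.

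**Figure D5:**
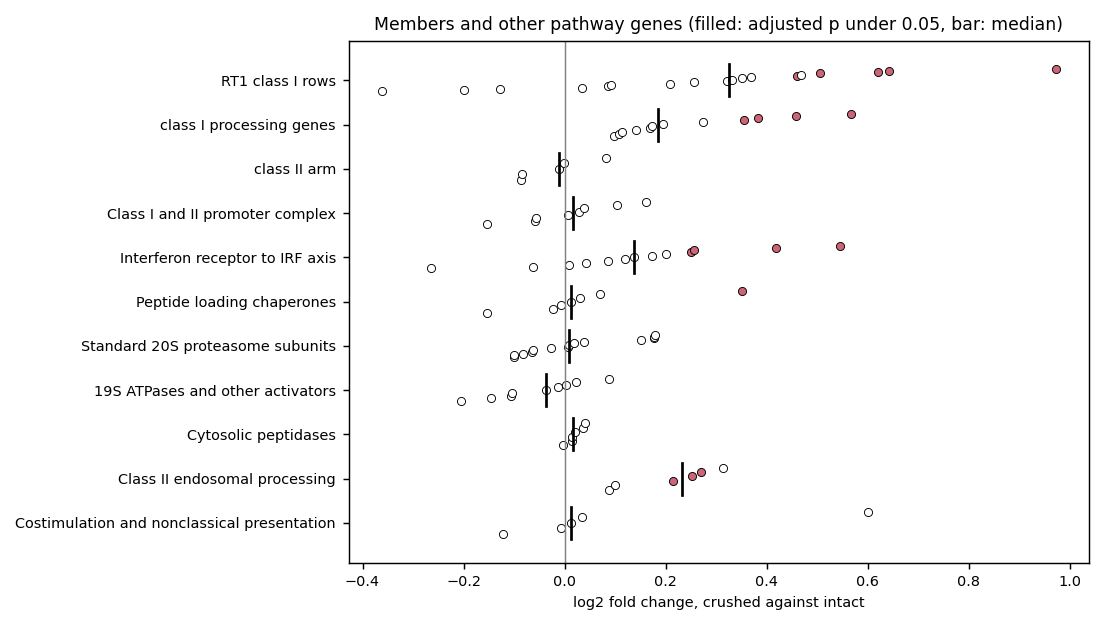
Log2 fold change, crushed against intact, of each tested gene in the member groups and in 8 lists of other pathway genes, with filled points for an adjusted p under 0.05 in edgeR's quasi-likelihood test and a bar at the median. Filled points occur in the RT1 class I rows, the processing genes, the interferon axis, the chaperones and the endosomal genes, and none lies below 0.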

How the data were processed

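RNA-seq of 3 crushed and 3 intact sciatic nerves was analysed from the gene table of the series. The authors deposited whole read counts and FPKM values (fragments scaled to gene length and library size) per Ensembl gene and nerve, without pooling. The submitters' processing notes name HISAT2, StringTie 1.3.0 and the build Rnor_6.0. The counting program, its strand setting, its treatment of shared reads and the annotation release are not given in the sources used here, so RT1 copies and antisense overlaps may share reads. All columns of values were matched to samples.

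From the deposited counts, genes were filtered with filterByExpr, scaled with TMM factors and tested with edgeR 4.0.16 (glmQLFit and glmQLFTest, two-sided, R 4.3.3) over 12393 genes. A member was called at a Benjamini-Hochberg adjusted p under 0.05 over all genes. Normalized CPM used the TMM-scaled totals, and FPKM was used only for levels per length. Intervals are 95% intervals of the fit and cover the spread of these samples. On simulated counts for 12320 genes the test recovered 66 of 97 genes changed by 0.5 on the log2 scale and 89 of 99 changed by 1. It also called 20 of 12124 unchanged genes, a larger share of all calls than the adjusted p threshold of 0.05. Replicates of a group differed by more than sampling noise. Alternatives were a replicate block, DESeq2 1.42.0, limma 3.58.1 on log2(FPKM + 0.1), no filter, other scalings and leaving out each nerve.

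The members and the lists were chosen with earlier results of these data known. All members outside the RT1 family were named, and every RT1 row that was tested. Untested RT1 rows were named where a nerve had at least 3 counts, and RT1-N2, RT1-M5, RT1-DOa, RT1-DOb and RT1-Ha were named after their values were seen. From each list up to 3 called genes of smallest p were named in each direction, and other list and marker genes in the text were named after their values were seen. Some list and marker genes are counted but not reported by name here. The promoter windows were also chosen after the calls were known. All 57 member names matched the RefSeq table (GRCr8), and 45 had a promoter.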

Additional observations from a re-analysis of the deposited data

How the results depend on the processing

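Of the 9 called members, 8 kept the call in all 12 alternative fits. Leave-one-out fits gave 8 to 10 class I members called higher. Fitting the replicate number as a block (replicate block) called the same 9 class I members. Deviations of same-numbered nerves correlated at −0.00965, −0.00262 and 0.0709. These values cannot decide whether same-numbered samples came from the same rat, since noise larger than differences between rats would also give low values. No class II member was called in any fit. An unadjusted threshold gave 17 class I members higher and 1 lower. RT1-CE4 passed the study's threshold, as the 1 member to do so, in the fits without intact nerve 1, intact nerve 2 or crushed nerve 1, so that count ranged from 0 to 1. RT1-A2 was called with DESeq2 (0.37, adjusted p = 0.0251), total count scaling (0.39, adjusted p = 0.0435) and upper-quartile scaling (0.37, adjusted p = 0.0490).

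Directions reversed only in members that were not called. Leaving out each nerve in turn, log2 fold changes ranged from −0.107 to 0.854 for RT1-CE3, from −0.690 to 0.809 for RT1-T24-3, from −0.0138 to 0.1003 for RT1-CE16, from −0.146 to 0.0321 for RT1-Db1, from −0.276 to 0.0724 for RT1-DMb, from −0.171 to 0.128 for RT1-Ba and from −0.138 to 0.0652 for RT1-DMa. RT1-Ba was at 0.00674 with total count scaling. RT1-DMa was at 0.000766 with DESeq2, 0.00145 with no filter, 0.00367 with limma, 0.0157 with total count scaling and 0.00122 with upper-quartile scaling. The cause was not tested.

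Over all genes, limma called 156 higher and 86 lower, against 182 and 205 in edgeR, DESeq2 called 221 and 291, and leaving out nerves gave 100 to 218 higher and 75 to 174 lower. With 3 nerves per group, rows of few counts had wide intervals.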
